A study of Mus musculus with 9 samples.

Results

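The 9 genes described here encode the enzymes of the pentose phosphate pathway and the enzymes that pass its product on to nucleotide synthesis. They were chosen by name as pathway enzymes, with earlier results of these data known. They comprise the oxidative enzymes (G6pdx, Pgls and Pgd), the non-oxidative enzymes (Rpia, Rpe, Tkt and Taldo1) and the phosphoribosyl pyrophosphate (PRPP) synthetases (Prps1 and Prps2). All 9 were found in the count table of 53342 genes, and all 9 had enough counts to be among the 12511 genes tested.

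RNA was sequenced from bone-marrow-derived macrophages, cells grown from the marrow of C57BL/6J mice of both sexes aged 8 to 12 weeks. In each of the 3 groups the cells were given vehicle, rapamycin or Torin-2 for 2 h and then homogenised spinal cord at 1% weight per volume for another 24 h, with the vehicle or compound still present. Homogenate was made from pooled cords of C57BL/6 mice and loads the cells with lipid from myelin and other cord tissue, and no group went without it. Each group held 3 biological replicates, so there were 9 libraries. Rapamycin acts on mTOR complex 1, and Torin-2 blocks the ATP site of the mTOR kinase in both of its complexes. The study used rapamycin as the control that accounts for the part of Torin-2's effect that goes through mTOR complex 1. The labels state neither the doses nor the sex of each replicate's donor mouse.

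The pentose phosphate pathway branches from glycolysis at glucose 6-phosphate. Its oxidative enzymes run in sequence and make NADPH, which macrophages spend on lipid synthesis, on keeping glutathione reduced and on the oxidative burst. Its non-oxidative enzymes interconvert sugar phosphates, so that carbon can return to glycolysis or leave as ribose 5-phosphate, from which the PRPP synthetases make the activated ribose of purines, pyrimidines and NAD.

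DNA just upstream of the RefSeq start is shown for the 4 members in which a searched motif was found, since the members split into groups that moved differently. The sequences are RefSeq promoters on GRCm38.p6, the table matched 9 of 9 members with 10 promoters (Pgd has 2), and positions are counted back from the RefSeq transcription start. GENCODE M21 places the starts of G6pdx and Pgd farther upstream, so their windows lie inside the gene spans given below. The 250 bases before each start were searched on both strands for the E-box CACGTG, the antioxidant response element core TGACNNNGC bound by NRF2, the sterol regulatory element TCACNCCAC, the CCAAT box CCAAT and the FOXO site GTAAACA. Each line gives 30 bases, 5′ to 3′ on the gene's own strand, and capitals mark the match.
G6pdx, chrX:74428919-74428948, minus strand: gaggcgggtcaGCTCAGTCAaagcacacgc
Pgd, chr4:149166735-149166764, minus strand: gcgccgcagagacCCAATagcgtggggcat
Taldo1, chr7:141392130-141392159, plus strand: gcttcatttagctttgctttgATTGGccag
Prps1, chrX:140456529-140456558, plus strand: cacacccgtccaaCCAATcagaaaaggctg
Prps1, chrX:140456373-140456402, plus strand: tatttagagttgGTAAACAagccctttgcc

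G6pdx held an antioxidant response element core on the opposite strand at -57 to -49. A CCAAT box was found in Pgd (at -46 to -42 in the window shown), Taldo1 (at -9 to -5 on the opposite strand) and Prps1 (at -61 to -57), genes whose transcripts moved differently. Prps1 also had a FOXO site at -218 to -212. Among 32851 promoters of the same length, 10.2% held the antioxidant response element core, 33.8% the CCAAT box (against 3 of the 9 members), 3.17% the FOXO site, 6.02% the E-box and 1.05% the sterol regulatory element. No E-box and no sterol regulatory element was found in the 10 promoters, and Pgls, Rpia, Rpe, Tkt, Prps2 and the other Pgd promoter held none of the motifs. A match here is a run of letters and not a site shown to be bound.

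The 9 libraries held 16116666 to 24044329 counts each, and none were identical. The unit of level is CPM, a gene's count per 1000000 counts of its library after scaling by edgeR's TMM factors, and it compares each gene with the other RNAs of its library, so every change below is relative. All 10 macrophage markers were high enough to test, with summed levels of 12385 to 17165 CPM with vehicle, 20416 to 22079 with rapamycin and 15597 to 17424 with Torin-2. Mpo of granulocyte precursors and Cd3e of T cells had 0 counts in every library. The neutrophil marker S100a8 stood at 3.25 ± 0.367 CPM with vehicle, 4.16 ± 0.961 with rapamycin and 1.80 ± 0.525 with Torin-2. The 6 fibroblast and mesenchymal markers summed to 8.95 to 37.8, 12.3 to 78.2 and 2.38 to 7.17 CPM in the same order. Of these, 3 of 3 tested fell with Torin-2 against vehicle, beside 32.9% of all tested genes. Transcripts typical of spinal cord were present, and the 7 oligodendrocyte and myelin markers summed to 481 to 613 CPM with vehicle, 692 to 846 with rapamycin and 366 to 423 with Torin-2. In such bulk RNA, fewer cells of a type and less RNA per cell cannot be told apart, nor can macrophage RNA be told from cord RNA of the same gene.

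**Figure D1:**
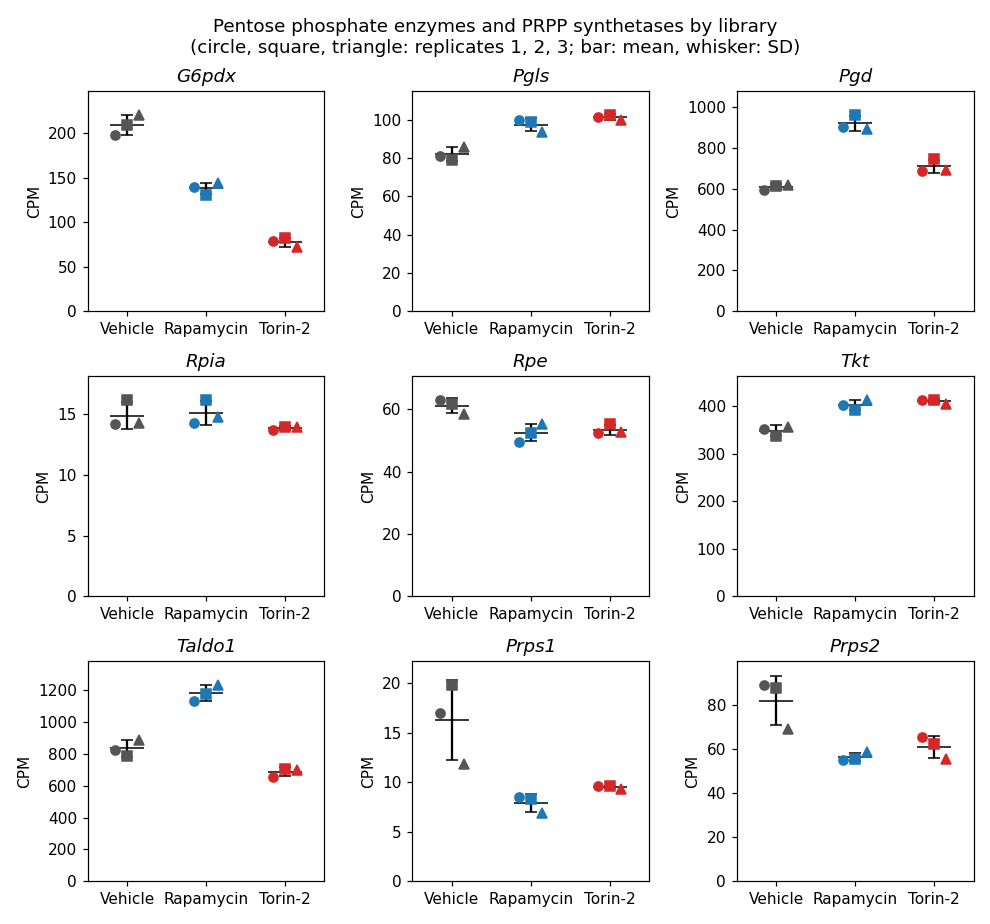
Level of each of the 9 genes (y axis, CPM from 0, each panel on its own scale) in every library (circle, square and triangle for replicates 1, 2 and 3) by group (x axis), with the mean as a bar and the SD as a whisker (n = 3). G6pdx steps down from vehicle (198 to 221) through rapamycin (131 to 144) to Torin-2 (72.0 to 81.8), whereas Pgd and Taldo1 are highest with rapamycin.

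The members did not move as a block. In the quasi-likelihood test of edgeR, with Benjamini-Hochberg adjustment over the 12511 genes and a threshold of 0.05, Torin-2 gave 3 higher and 5 lower members against vehicle. Of all tested genes, 32.5% were higher, 32.9% lower and 65.4% called in that comparison. Rapamycin against vehicle gave 4 higher and 4 lower members, beside 24.6% higher, 26.2% lower and 50.8% called. A high share was thus called across the transcriptome. Torin-2 against rapamycin called 3 of 9, all lower, beside 24.1% of tested genes lower, 24.2% higher and 48.2% called. The groups did not overlap for 9, 8 and 5 members in these comparisons, beside 70.2%, 57.5% and 57.2% of tested genes.

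The size of the members' changes, set against all tested genes, differed between the comparisons. The median absolute log2 fold change of the 9 was 0.28 with Torin-2, below the 0.52 of all tested genes, and 0.50 with rapamycin, above the 0.35 of all tested genes. Between the compounds it was 0.12, against 0.34 for all tested genes. Their signed medians of -0.20, 0.02 and 0.02 lay near the -0.01, 0.00 and 0.00 of all tested genes. A called change of at least 2-fold was found in 1 member for Torin-2 against vehicle (G6pdx, beside 20.7% of tested genes) and in 1 for rapamycin against vehicle (Prps1, beside 8.60%), and in 0 between the compounds, beside 9.58%. The comparisons with vehicle share the vehicle libraries, and those with rapamycin share the rapamycin libraries.

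Transcript abundance differed greatly between the members, here compared as CPM per kilobase of each gene's principal transcript. With vehicle, Taldo1 stood at 678 ± 41.4, Pgd at 275 ± 5.73, Tkt at 108 ± 3.35, Pgls at 91.8 ± 4.05 and G6pdx at 79.0 ± 4.39 CPM per kb (SD, n = 3). Rpe (22.7 ± 0.859) and Prps2 (22.1 ± 2.99) were within each other's spread, as were Prps1 (8.28 ± 2.05) and Rpia (8.13 ± 0.609). Thus the most abundant transcript belonged to transaldolase, a non-oxidative enzyme, and the gateway enzyme G6pdx came after Pgls. The middle of this order depends on the length used: over all annotated exons of a gene, G6pdx came to 68.0, Tkt to 47.4 and Pgls to 21.7 CPM per kb with vehicle.

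The 9 members summed to 1255 to 1346 CPM per kb with vehicle, 1665 to 1739 with rapamycin and 1165 to 1235 with Torin-2. Taldo1 made up 52.4% of that sum with vehicle, 56.2% with rapamycin and 46.7% with Torin-2, so the sum follows Taldo1 closely. The share of Pgd was 21.3%, 24.3% and 26.7% in the same order, and that of G6pdx 6.11%, 3.05% and 2.44%. In all 3 groups G6pdx stayed above Rpe on this scale, at 29.3 ± 1.92 against 19.8 ± 0.582 CPM per kb with Torin-2.

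G6pdx, glucose-6-phosphate dehydrogenase, catalyses the first and rate-limiting oxidative step. Its gene (ENSMUSG00000031400) lies on the minus strand of chromosome X from 74409483 to 74429194 on GRCm38. Its level was 198, 209 and 221 CPM in the vehicle replicates, 139.6, 131 and 144 with rapamycin, and 79.1, 81.8 and 72.0 with Torin-2. The 3 groups were fully separated, each compound below vehicle and Torin-2 below rapamycin.

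G6pdx was 2.7-fold lower with Torin-2 than with vehicle, a log2 fold change of -1.43 ± 0.07 (SE, edgeR with Benjamini-Hochberg adjusted p = 5.82e-09). It was 1.52-fold lower with rapamycin (-0.60 ± 0.07, edgeR with Benjamini-Hochberg adjusted p = 1.76e-05). The step from rapamycin to Torin-2 was a further 1.78-fold (-0.83 ± 0.07, 95% interval -0.98 to -0.69, edgeR with Benjamini-Hochberg adjusted p = 1.66e-06). Reads from overlapping exons cannot be assigned when the strand setting is not known, and G6pdx shares 418 exon bases with Ikbkg on the opposite strand. Ikbkg, a subunit of the NF-kB kinase, moved the other way, from 113 ± 1.93 CPM with vehicle to 192 ± 11.1 with rapamycin and 194 ± 10.5 with Torin-2.

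Pgls, 6-phosphogluconolactonase, opens the lactone that G6pdx makes. Its gene (ENSMUSG00000031807) is on the plus strand of chromosome 8 from 71592176 to 71601092. Its level was 81.2, 78.8 and 85.9 CPM with vehicle, 99.96, 98.7 and 93.3 with rapamycin, and 101, 103 and 99.5 with Torin-2. All 6 treated libraries were above all 3 vehicle libraries, and the treated groups overlapped each other.

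Pgls was 1.19-fold higher with rapamycin (0.25 ± 0.05, edgeR with Benjamini-Hochberg adjusted p = 0.00245) and 1.23-fold higher with Torin-2 (0.30 ± 0.05, edgeR with Benjamini-Hochberg adjusted p = 0.000347). No difference between the compounds was detected, at 0.06 with a 95% interval of -0.06 to 0.17. Pgls shares 776 exon bases with Fam129c on the same strand, which had 41 counts in all libraries together against 17054 for Pgls.

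Pgd, 6-phosphogluconate dehydrogenase, makes the second NADPH and releases ribulose 5-phosphate. Its gene (ENSMUSG00000028961) is on the minus strand of chromosome 4 from 149149991 to 149166771. Its level was 596, 615 and 619 CPM with vehicle, 904, 963 and 891 with rapamycin, and 689, 747 and 691 with Torin-2. The groups were again fully separated, but in another order than for G6pdx, with rapamycin highest and vehicle lowest.

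Pgd was 1.51-fold higher with rapamycin (0.59 ± 0.06, edgeR with Benjamini-Hochberg adjusted p = 6.73e-06) and 1.16-fold higher with Torin-2 (0.22 ± 0.06, edgeR with Benjamini-Hochberg adjusted p = 0.00456). Torin-2 lay 1.3-fold below rapamycin (-0.38 ± 0.06, 95% interval -0.50 to -0.25, edgeR with Benjamini-Hochberg adjusted p = 0.000172). Both dehydrogenases thus differed between the compounds, while the lactonase between them did not show a detectable difference.

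**Figure D2:**
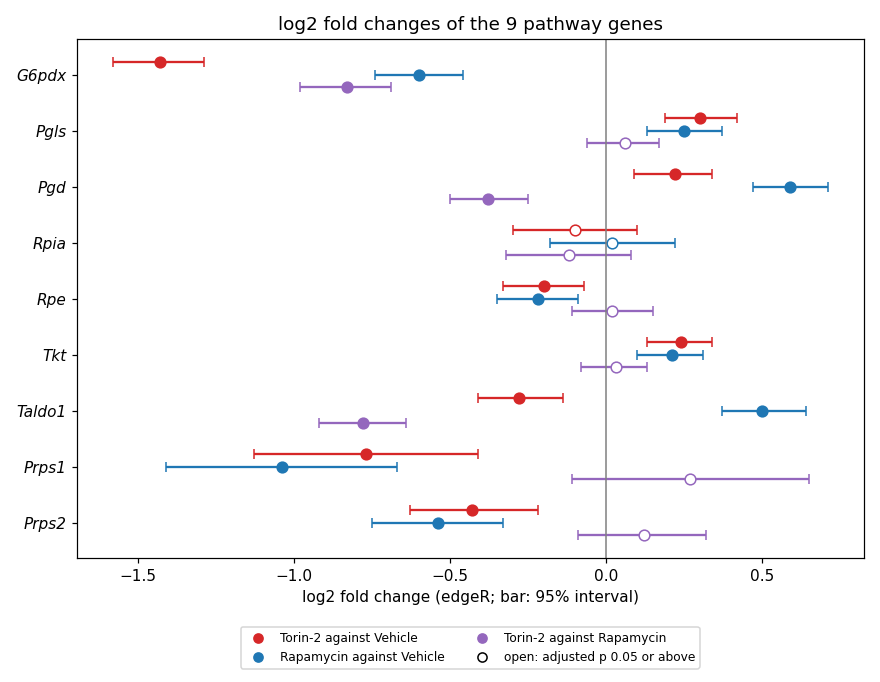
log2 fold change (x axis, points) with 95% interval (bars) of the 9 genes (y axis) in the 3 comparisons, from edgeR, with open points where the adjusted p was 0.05 or above. G6pdx lies farthest left (-1.43 for Torin-2 against vehicle), Taldo1 has points on both sides of 0 (0.50 for rapamycin and -0.28 for Torin-2), and 6 of the 9 genes have open points between the compounds.

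Rpia, ribose-5-phosphate isomerase, makes ribose 5-phosphate from ribulose 5-phosphate (ENSMUSG00000053604, minus strand of chromosome 6 from 70765720 to 70792232). Its level was 14.2, 16.2 and 14.3 CPM with vehicle, 14.3, 16.2 and 14.7 with rapamycin, and 13.7, 14.0 and 14.0 with Torin-2. It passed in none of the comparisons, and all 9 libraries lay between 13.7 and 16.2 CPM. The log2 fold change was -0.10 with a 95% interval of -0.30 to 0.10 for Torin-2, 0.02 (-0.18 to 0.22) for rapamycin and -0.12 (-0.32 to 0.08) between the compounds.

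Rpe, ribulose-5-phosphate epimerase, sends the same substrate to xylulose 5-phosphate (ENSMUSG00000026005, plus strand of chromosome 1 from 66700831 to 66719805). Its level was 63.1, 61.9 and 58.6 CPM with vehicle, 49.7, 52.6 and 55.2 with rapamycin, and 52.4, 55.2 and 52.6 with Torin-2. Every vehicle library was above every treated one, and the treated groups overlapped.

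Rpe was 1.17-fold lower with rapamycin (-0.22 ± 0.06, edgeR with Benjamini-Hochberg adjusted p = 0.00878) and 1.15-fold lower with Torin-2 (-0.20 ± 0.06, edgeR with Benjamini-Hochberg adjusted p = 0.0117). The Torin-2 call was lost without vehicle replicate 1 (-0.18, edgeR with Benjamini-Hochberg adjusted p = 0.0501) and without a filter on low counts (-0.18, adjusted p = 0.0646). Between the compounds the difference was 0.02, with an interval of -0.11 to 0.15. Rpe shares 558 exon bases with Kansl1l on the opposite strand, which had 1173 counts against 10250 for Rpe and was higher with Torin-2, at 9.88 ± 1.04 CPM against 4.18 ± 0.551 with vehicle.

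Tkt, transketolase, moves carbon pairs between sugar phosphates (ENSMUSG00000021957, plus strand of chromosome 14 from 30548359 to 30574720). Its level was 353, 337 and 357 CPM with vehicle, 404, 392 and 413 with rapamycin, and 414, 413 and 405.5 with Torin-2. As for Pgls, the 6 treated libraries were all above the vehicle libraries and overlapped each other.

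Tkt was 1.15-fold higher with rapamycin (0.21 ± 0.05, edgeR with Benjamini-Hochberg adjusted p = 0.00373) and 1.18-fold higher with Torin-2 (0.24 ± 0.05, edgeR with Benjamini-Hochberg adjusted p = 0.00103). The rapamycin call was lost when libraries were scaled by their totals alone (0.11, edgeR with Benjamini-Hochberg adjusted p = 0.0588), a scaling that moved all tested genes by a median of -0.10. The difference between the compounds was 0.03, with an interval of -0.08 to 0.13.

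Taldo1, transaldolase, takes part in the return of carbon to glycolysis (ENSMUSG00000025503, plus strand of chromosome 7 from 141392199 to 141402968). Its level was 826, 786 and 887 CPM with vehicle, 1133, 1175 and 1232 with rapamycin, and 656, 706 and 701 with Torin-2. The groups did not overlap, and Taldo1 was the 1 member whose calls against vehicle pointed in opposite directions for the 2 compounds.

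Taldo1 was 1.42-fold higher with rapamycin (0.50 ± 0.06, edgeR with Benjamini-Hochberg adjusted p = 4.66e-05) and 1.21-fold lower with Torin-2 (-0.28 ± 0.06, edgeR with Benjamini-Hochberg adjusted p = 0.00187). Torin-2 lay 1.72-fold below rapamycin (-0.78 ± 0.06, 95% interval -0.92 to -0.64, edgeR with Benjamini-Hochberg adjusted p = 1.71e-06). Neither Taldo1 nor Pgd overlaps another gene's exons or shares a run of 100 bases with one.

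Myelin transcripts moved between the groups in the same order as Taldo1. Mbp, encoding myelin basic protein, stood at 418 ± 52.6 CPM with vehicle, 613 ± 67.7 with rapamycin and 327 ± 25.1 with Torin-2, log2 fold changes of 0.55 for rapamycin and -0.35 for Torin-2. Of the 7 oligodendrocyte and myelin markers 6 were tested, of which 3 rose and 1 fell with rapamycin and 4 fell with Torin-2. Across all tested genes, 24.6% rose and 26.2% fell with rapamycin, and 32.5% rose and 32.9% fell with Torin-2. The summed fibroblast markers had their highest library with rapamycin and their lowest with Torin-2, with overlap between vehicle and rapamycin. The summed macrophage markers were highest with rapamycin too, carried by Lyz2, a lysozyme gene, at 9752 ± 1843, 14931 ± 814 and 11712 ± 987 CPM with vehicle, rapamycin and Torin-2. Of the 10 macrophage markers 6 rose and 3 fell with rapamycin and 3 rose and 3 fell with Torin-2, beside the same shares. Adgre1, Fcgr1 and Aif1 fell with both compounds. The part of these transcripts in the values of Taldo1 and Pgd was not tested.

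Prps1, PRPP synthetase 1, is encoded on the plus strand of chromosome X from 140456613 to 140476140 (ENSMUSG00000031432). Its level was 17.0, 19.85 and 11.9 CPM with vehicle, 8.56, 8.33 and 6.87 with rapamycin, and 9.63, 9.62 and 9.37 with Torin-2. All treated libraries lay below all vehicle libraries, and vehicle replicate 3 stood well under the other vehicle replicates.

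Prps1 was 2.06-fold lower with rapamycin (-1.04 ± 0.17, edgeR with Benjamini-Hochberg adjusted p = 0.00031) and 1.71-fold lower with Torin-2 (-0.77 ± 0.16, edgeR with Benjamini-Hochberg adjusted p = 0.00129). Without vehicle replicate 3 the differences were larger, at -1.22 and -0.95. The difference between the compounds did not pass (0.27, 95% interval -0.11 to 0.65), although their libraries did not overlap. Of the 100-base windows of Prps1's transcripts, 3.43% also occur in Prps1l3, a near copy on chromosome 12 named here after its values were seen, which stood at 18.9 ± 3.50, 17.5 ± 1.56 and 18.9 ± 0.644 CPM with vehicle, rapamycin and Torin-2 and passed in no comparison.

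Prps2, PRPP synthetase 2, lies on the minus strand of chromosome X from 167346322 to 167382749 (ENSMUSG00000025742). Its level was 89.0, 87.5 and 69.1 CPM with vehicle, 54.8, 55.5 and 58.4 with rapamycin, and 65.35, 62.1 and 55.6 with Torin-2. The treated libraries were all lower than the vehicle libraries, and vehicle replicate 3 was again the lowest of its group.

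Prps2 was 1.45-fold lower with rapamycin (-0.54 ± 0.09, edgeR with Benjamini-Hochberg adjusted p = 0.00056) and 1.34-fold lower with Torin-2 (-0.43 ± 0.09, edgeR with Benjamini-Hochberg adjusted p = 0.0017). Between the compounds it did not pass (0.12, 95% interval -0.09 to 0.32), but it did once replicate 3 of every group was left out (0.21, edgeR with Benjamini-Hochberg adjusted p = 0.0232). Both synthetases thus fell with both compounds.

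**Figure D3:**
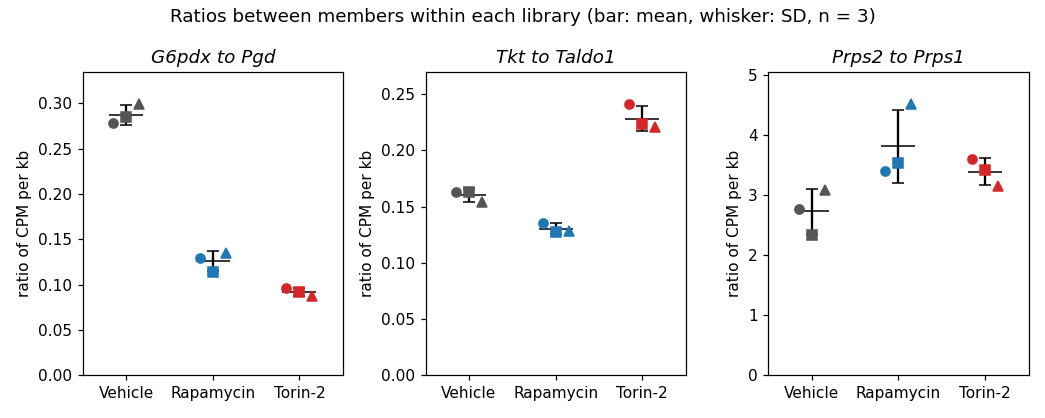
Ratio of CPM per kb (y axis, from 0) of G6pdx to Pgd, Tkt to Taldo1 and Prps2 to Prps1 in each library (points; circle, square and triangle for replicates 1, 2 and 3), with the mean as a bar and the SD as a whisker (n = 3), by group (x axis). G6pdx to Pgd falls from 0.278 to 0.299 with vehicle to 0.0870 to 0.0961 with Torin-2, and Tkt to Taldo1 is lowest with rapamycin and highest with Torin-2.

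Ratios within a library show how the members shifted against each other and do not depend on scaling. The ratio of G6pdx to Pgd, the NADPH-making dehydrogenases, was 0.287 ± 0.0106 with vehicle, 0.126 ± 0.0110 with rapamycin and 0.0916 ± 0.00453 with Torin-2 (SD, n = 3). The libraries of the 3 groups did not overlap, with the least G6pdx per Pgd under Torin-2.

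Tkt to Taldo1 was 0.160 ± 0.00548 with vehicle, 0.130 ± 0.00474 with rapamycin and 0.228 ± 0.0110 with Torin-2. Here the compounds lay on opposite sides of vehicle, again without overlap. Prps2 to Prps1 was 2.73 ± 0.374, 3.82 ± 0.608 and 3.40 ± 0.230, with no overlap between vehicle and either compound and with overlap between the compounds. The absolute size of these ratios depends on the transcript lengths, and no test was run on them.

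Patterns across the 9 libraries were compared by the root mean square difference of log2 CPM after centring each gene on its own mean. Among the members, Pgls and Tkt were most alike, at 0.0512, although they belong to different branches. G6pdx stood apart from the other oxidative enzymes, at 0.712 from Pgls and 0.698 from Pgd. Pgd was nearer to Pgls (0.192) and Tkt (0.195) than to Taldo1 (0.224), and Prps2 was nearer to Rpe (0.160) than to Prps1 (0.245). The measure counts the size of a change as well as its direction. Prps1 and Prps2 fell with both compounds but by different amounts (-1.04 and -0.54 with rapamycin, -0.77 and -0.43 with Torin-2).

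Over 8665 genes of at least 5 CPM, the genes most like G6pdx were P4hb (0.0637), Gch1 (0.0698) and Txndc11 (0.0750), where the median gene differed by 0.626. P4hb, a protein disulfide isomerase of the endoplasmic reticulum, averaged 1733, 1163 and 661 CPM with vehicle, rapamycin and Torin-2. The genes most like Tkt were P2rx4 (0.0211), Nek9 (0.0230) and Setd3 (0.0344), with a median of 0.276. Those most like Prps1 were Ncapd3 (0.110), Rfc5 (0.125) and Pmf1 (0.137), with a median of 0.531. Ncapd3 encodes a condensin subunit, Rfc5 a subunit of the clamp loader of DNA replication and Pmf1 a kinetochore protein. These are descriptions over the same 9 libraries.

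Genes around the pathway were read from lists of its neighbours. Of 14 paralogues, associated proteins and feeder enzymes, 10 were tested, of which 2 rose and 3 fell with Torin-2 (median log2 fold change -0.12) and 2 rose and 5 fell with rapamycin (-0.26), beside 65.4% and 50.8% of all tested genes called. The paralogues G6pd2, Tktl1, Tktl2 and Prps1l1 were too low to test. H6pd, which runs the first oxidative steps inside the endoplasmic reticulum, went from 154 ± 5.63 CPM with vehicle to 223 ± 19.3 with rapamycin and 165 ± 9.42 with Torin-2, the order seen for Pgd. It rose with rapamycin (0.54, edgeR with Benjamini-Hochberg adjusted p = 6.82e-05) and did not pass with Torin-2 (0.11, adjusted p = 0.207).

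The PRPP synthetase-associated proteins bind and restrain the synthetases. Prpsap1 rose from 24.5 ± 1.05 CPM with vehicle to 32.9 ± 1.79 with rapamycin and 48.2 ± 4.12 with Torin-2, a log2 fold change of 0.98 for Torin-2 (edgeR with Benjamini-Hochberg adjusted p = 4.62e-07), while both synthetases fell. Prpsap2 fell with rapamycin, from 18.7 ± 1.65 to 14.1 ± 1.32 CPM (-0.41, edgeR with Benjamini-Hochberg adjusted p = 0.00449), and stood at 17.5 ± 0.745 with Torin-2, where it did not pass. Dera, which splits deoxyribose 5-phosphate, fell from 111 ± 3.20 CPM with vehicle to 52.0 ± 2.33 with rapamycin and 46.3 ± 1.75 with Torin-2.

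Of 13 genes tested from the list of other NADPH sources, 8 fell and 1 rose with Torin-2 (median -0.74). With rapamycin 8 fell and 1 rose (-0.31). The list is broader than its name. It also holds Mthfd1l, which lacks the dehydrogenase step, and the NAD kinases Nadk and Nadk2, which make NADP. Nadk2 was the riser with both compounds, and Aldh1l2 had the largest fall with both (-4.63 with Torin-2 and -2.57 with rapamycin). Aldh1l2 was low already with vehicle, at 2.54 ± 0.811 CPM, and shares 1056 exon bases with D10Wsu102e on the opposite strand. Of all tested genes, 32.9% fell and 65.4% were called with Torin-2, and 26.2% fell and 50.8% were called with rapamycin. Idh1, the cytosolic isocitrate dehydrogenase, fell from 694 ± 33.9 CPM with vehicle to 565 ± 13.8 with rapamycin and 416 ± 16.1 with Torin-2, in the order of G6pdx. Me2, the mitochondrial malic enzyme that mainly uses NAD, fell from 125 ± 5.47 to 51.1 ± 3.87 and 26.1 ± 1.65 CPM. The cytosolic malic enzyme Me1 did not pass against vehicle with either compound, but with replicate number as a block it passed with Torin-2 (-0.28, edgeR with Benjamini-Hochberg adjusted p = 0.00611) and with rapamycin (0.20, adjusted p = 0.0367).

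The list of antioxidant enzymes covers the glutathione and thioredoxin systems, several of whose enzymes depend on NADPH directly or through a partner. It also holds genes of glutathione synthesis (Gclc, Gclm and Gss), catalase (Cat) and Nqo1, so not every gene counted needs NADPH. Of 11 on the list, 6 rose and 5 fell with Torin-2 (median 0.23), and 5 rose and 3 fell with rapamycin (0.31), beside 65.4% and 50.8% of all tested genes called. Gsr, glutathione reductase, rose from 256 ± 12.8 CPM with vehicle to 450.1 ± 23.2 with rapamycin and 402 ± 28.3 with Torin-2. Gclc, of glutathione synthesis, rose from 51.4 ± 6.48 to 75.3 ± 3.92 and 96.1 ± 4.27 CPM. Nqo1, a quinone reductase and an NRF2 target, fell with Torin-2 from 9.99 ± 1.65 to 3.56 ± 0.326 CPM (-1.49, edgeR with Benjamini-Hochberg adjusted p = 2.95e-06). With rapamycin it stood at 12.4 ± 1.03 CPM and did not pass (adjusted p = 0.0764), but it passed without vehicle replicate 2 (0.42, adjusted p = 0.0293) and with a replicate block (0.31, adjusted p = 0.0276).

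Prdx1, a peroxiredoxin, fell with Torin-2 from 4675 ± 285 to 1909 ± 183 CPM and stood at 4309 ± 202 with rapamycin, which did not pass. Txnrd1, thioredoxin reductase, was at 555 ± 33.2 CPM with vehicle, 583 ± 23.7 with rapamycin and 454 ± 28.2 with Torin-2, and passed against vehicle with Torin-2 (-0.29, edgeR with Benjamini-Hochberg adjusted p = 0.00182). Of the 6 subunits of the phagocyte NADPH oxidase, 3 rose and 2 fell with Torin-2 (median 0.38) and 2 rose and 1 fell with rapamycin (0.03), beside 65.4% and 50.8% of all tested genes called. Its catalytic subunit Cybb rose from 794 ± 52.0 CPM to 1686 ± 85.4 with rapamycin and 1863 ± 30.3 with Torin-2, while its partner Cyba fell from 756 ± 46.7 to 641 ± 23.4 and 486 ± 9.26.

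PRPP enters purine and pyrimidine synthesis, whose lists hold its users together with other enzymes. In the pyrimidine list these include enzymes that act before PRPP enters (Cad and Dhodh) and salvage kinases (Uck1 and Uck2). In purine synthesis 3 of 11 rose and 6 fell with Torin-2 (median -0.23), and 2 rose and 6 fell with rapamycin (-0.21), beside 32.9% and 26.2% of all tested genes lower. Ppat, which commits PRPP to purines, stood at 23.3 ± 3.43 CPM with vehicle, 18.4 ± 1.09 with rapamycin and 24.6 ± 2.19 with Torin-2. Its rapamycin call (-0.34, edgeR with Benjamini-Hochberg adjusted p = 0.025) no longer passed when vehicle replicate 1 (0.0622), vehicle replicate 2 (0.109) or rapamycin replicate 1 (0.0876) was left out, and Ppat shares 272 exon bases with Paics on the opposite strand. Adss, of AMP synthesis, rose from 110.5 ± 6.90 CPM to 251 ± 21.2 and 321 ± 4.83. Impdh2, of GMP synthesis, fell with rapamycin from 47.4 ± 3.56 to 32.7 ± 2.91 CPM and rose with Torin-2 to 59.5 ± 2.10. Impdh1 and Adssl1, the more abundant genes for the same steps with vehicle, fell with Torin-2. Impdh1 went from 210 ± 8.55 to 108 ± 3.62 CPM and Adssl1 from 333 ± 47.5 to 184 ± 10.3. With rapamycin Impdh1 did not pass (188 ± 19.9 CPM) and Adssl1 rose (439 ± 46.6).

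In pyrimidine synthesis 4 of 7 fell and 2 rose with Torin-2 (median -1.0), and 5 fell and 0 rose with rapamycin (-0.75), beside 32.9% and 26.2% of all tested genes lower. Cad, the first enzyme of that route, fell from 29.5 ± 0.474 CPM with vehicle to 17.5 ± 4.20 with rapamycin and 14.8 ± 1.06 with Torin-2. Umps, the PRPP user of this list, did not pass with Torin-2 (-0.20, edgeR with Benjamini-Hochberg adjusted p = 0.114). It fell with rapamycin (-0.31, adjusted p = 0.0315). Ctps, a CTP synthase, fell from 13.9 ± 3.37 to 7.09 ± 0.871 and 2.89 ± 0.0907 CPM. Ctps2, the more abundant CTP synthase, rose with Torin-2 from 49.1 ± 1.43 to 73.1 ± 5.13 CPM. It did not pass with rapamycin, at 53.9 ± 4.09. Of 5 other PRPP-using enzymes tested, 3 fell and 0 rose with each compound (medians -0.32 and -0.24), beside the same 32.9% and 26.2%. Hprt, of purine salvage, fell with Torin-2 from 222 ± 21.9 to 105 ± 8.20 CPM, and its smaller fall with rapamycin (-0.24, edgeR with Benjamini-Hochberg adjusted p = 0.0212) no longer passed when vehicle replicate 1 (0.11) or rapamycin replicate 1 (0.0537) was left out.

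**Figure D4:**
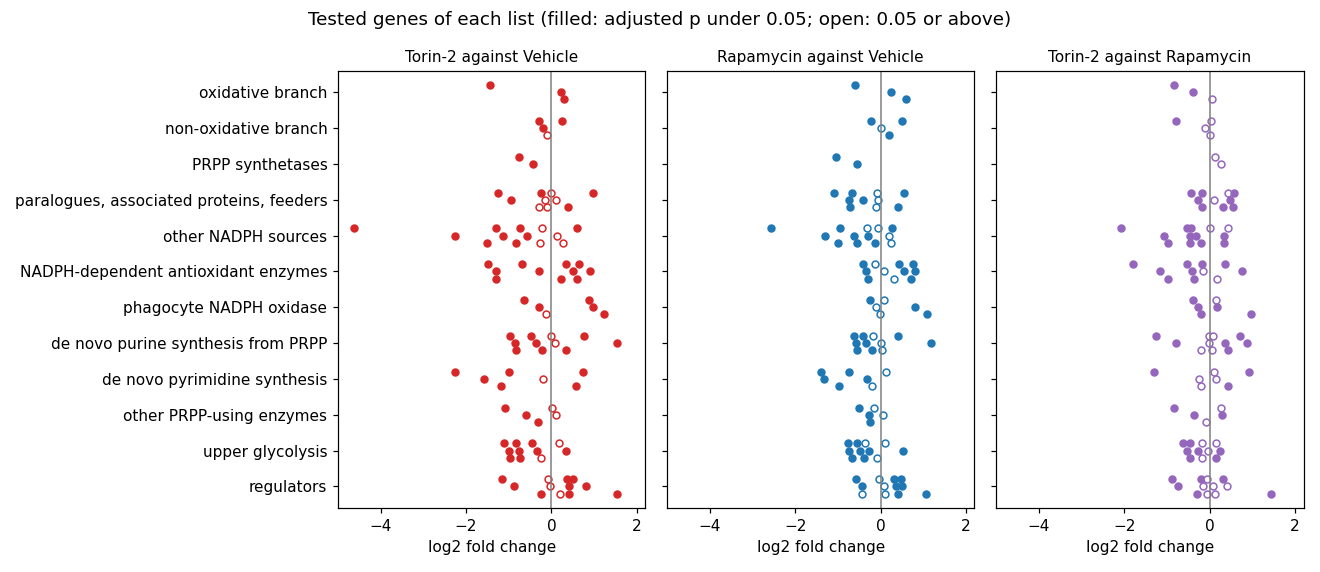
log2 fold change (x axis) of every tested gene (points) of the 12 lists (y axis) in the 3 comparisons, filled where the adjusted p was under 0.05. In upper glycolysis 8 of 11 tested genes fell with Torin-2 and 7 with rapamycin, whereas the 3 lists of pathway members have points on both sides of 0 except for the PRPP synthetases.

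Upper glycolysis shares substrates with the pathway. With Torin-2 8 of its 11 tested genes fell and 1 rose (median -0.73), beside 32.9% of all tested genes lower. With rapamycin 7 fell and 1 rose (-0.38), beside 26.2% lower. Hk2, a hexokinase that makes glucose 6-phosphate, fell from 85.2 ± 7.31 CPM with vehicle to 54.0 ± 4.97 with rapamycin and 39.6 ± 1.79 with Torin-2. Hk3, a more abundant hexokinase, fell from 599 ± 23.1 to 428 ± 8.72 and 470 ± 16.2 CPM. Hk1 stood at 108 ± 11.4 CPM with vehicle. It did not pass with rapamycin (115 ± 6.85) and fell with Torin-2 (79.0 ± 3.63). Gapdh fell from 1645 ± 128 to 1125 ± 18.9 and 926 ± 23.5 CPM. Gpi1, which takes glucose 6-phosphate on into glycolysis, was the riser with both compounds, from 474 ± 46.4 to 679 ± 63.2 and 596 ± 8.66 CPM.

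Of 12 regulators, 6 rose and 3 fell with Torin-2 (median 0.28) and 6 rose and 2 fell with rapamycin (0.21), beside 65.4% and 50.8% of all tested genes called and 32.5% and 24.6% higher. Nfe2l2, encoding NRF2, rose from 114 ± 7.27 CPM with vehicle to 148 ± 6.78 with rapamycin and 161 ± 7.27 with Torin-2. Bach1, a repressor at NRF2 sites, rose from 83.7 ± 5.67 to 118 ± 2.51 and 147 ± 7.19 CPM. Srebf1, encoding the lipogenic factor SREBP1, rose from 55.1 ± 2.52 to 72.9 ± 0.963 and 70.7 ± 1.62 CPM.

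Tigar, a phosphatase that diverts glucose 6-phosphate into the pathway, fell from 19.2 ± 0.918 CPM with vehicle to 14.2 ± 1.33 with rapamycin and 8.59 ± 0.832 with Torin-2. Hif1a fell from 198 ± 4.95 to 133 ± 3.76 and 109 ± 4.28 CPM. Myc rose with rapamycin, from 15.3 ± 1.34 to 32.1 ± 5.81 CPM (1.06, edgeR with Benjamini-Hochberg adjusted p = 5.73e-05), and did not pass with Torin-2 at 17.5 ± 2.03 (0.19, adjusted p = 0.255). Tigar and Hif1a thus followed the order of G6pdx across the groups, and Myc had its highest level in the group where Pgd and Taldo1 had theirs. Atf4, the regulator with the largest rise with Torin-2, stood at 100 ± 13.55 CPM with vehicle, 108 ± 23.6 with rapamycin and 292 ± 28.6 with Torin-2. It rose with Torin-2 (1.54, edgeR with Benjamini-Hochberg adjusted p = 1.62e-06) and did not pass with rapamycin (0.11, adjusted p = 0.54). Whether these regulators act on the members was not tested.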

How the data were processed

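RNA of 9 libraries was sequenced as paired-end reads of 100 bases from a NuGEN Universal Plus mRNA kit, per the labels. The table deposited by the authors holds unnormalised read counts for each gene and library. STAR 2.5.2a, FastQC, bcl2fastq and the builds mm10 and GRCm38.p6 appear in the submitters' processing notes. How reads were counted, with which strand setting and annotation, is not given in the sources used here. Positions come from GENCODE M21 (GRCm38), which held 53237 of the 53342 gene identifiers.

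The 9 libraries entered 1 quasi-likelihood fit without covariates in edgeR 4.0.16 under R 4.3.3, after filterByExpr by group and with TMM factors of 0.955 to 1.05. Its 3 contrasts were 2-sided, and p-values were adjusted by Benjamini-Hochberg over 12511 genes, at 0.05. The common biological coefficient of variation was 9.96%. Alternatives were DESeq2 1.42.0, other scalings, no filter, fits of 2 groups, a replicate block and leaving out libraries. Lists are described by counts and medians without a set test. The fit was tested on simulated data.

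Members and lists were chosen with earlier results of these data known. Besides the 9 members, each list gives up to 2 of its largest rises and falls past the threshold with at least 1 CPM. The text also names a few genes fixed by name, and for 3 members the 3 genes of most similar pattern. Umps, cell markers, genes that overlap or resemble a named gene, and genes mentioned only as list contents are named outside this rule. Deviations from the group means correlated at 0.168 to 0.5 for the 9 same-numbered library pairs and at -0.358 to 0.162 for the 18 others. Replicate numbers were therefore taken to pair the libraries, and the labels keep bones of different animals apart. The main fit leaves this pairing out, so its p-values and SEs do not take it into account. The replicate block is given as an alternative. One marker gene and 1 promoter window are not reported here.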

Additional observations from a re-analysis of the deposited data

How the results depend on the processing

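Across 432 combinations of a member, a comparison and an alternative, 422 kept their direction and side of the threshold, 3 lost a call, 1 gained one and 6 changed sign. With single libraries or replicate 3 left out, members called ran from 7 to 8 (Torin-2 against vehicle), 8 to 8 (rapamycin against vehicle) and 3 to 4 (between the compounds), and genes called from 7511 to 8390, 5457 to 6258 and 5168 to 6174. With a replicate block, 8713, 7003 and 6831 genes and 8, 8 and 3 members were called; of the genes named, the block changed the calls of Me1 and Nqo1 against vehicle, given above, and between the compounds those of Gsr (adjusted p = 0.0102), Cybb (0.0338) and Gpi1 (0.0193) by edgeR with Benjamini-Hochberg adjustment. With library totals alone, the share of higher calls for rapamycin against vehicle was 37.4% in place of 48.5%, and Prdx1 passed there (-0.21).

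The sign changes were in small, uncalled differences. For Rpia with rapamycin they were -0.08 with library totals, and -0.01, -0.01 and -0.03 without vehicle replicate 1, vehicle replicate 3 and rapamycin replicate 2, in a range of -0.03 to 0.08 over libraries left out. For Rpe between the compounds they were -0.02 and 0.00 without rapamycin replicate 1 and Torin-2 replicate 2 (range -0.02 to 0.07). Ppat with Torin-2 was -0.03 and -0.04 without vehicle replicate 3 and without replicate 3 of all groups (range -0.04 to 0.18). Prps1l3 with Torin-2 was 0.00 under DESeq2 and RLE factors, 0.01 without a filter and with the replicate block, 0.16, 0.02 and 0.01 without vehicle replicate 2, Torin-2 replicate 1 and Torin-2 replicate 3 (range -0.09 to 0.16), and with rapamycin 0.05 without vehicle replicate 2 (range -0.25 to 0.05). With library totals, Txnrd1 was -0.03 for rapamycin against vehicle and Srebf1 0.03 between the compounds. The cause of these changes was not tested. Rpia and Prps1, at about 7 to 20 CPM, are the members measured with the fewest counts.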
